A study of Rattus norvegicus with 15 samples.

Results

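The genes described here are the 103 autosomal protein-coding genes whose mean level was nearly the same in normal and hyperplastic adrenal medulla of the rat and at least 3-fold higher or lower in pheochromocytoma. They were chosen from the deposited tables by the measured values themselves. A gene had to be listed in the tables of both PCC comparisons, to reach a mean of at least 1 FPKM (fragments scaled to transcript length and library size) in 1 of the groups, to have a HYP/WT ratio of mean FPKM between 0.8 and 1.25, and to have a PCC/HYP ratio of at least 3 or at most 0.333. Of the 8621 genes listed in any table, 2975 were in both PCC tables and 2586 of these were autosomal, protein coding and at or above the minimum level. Among these eligible genes, 687 (26.6%) lay within the HYP/WT band, and 103 of them passed the PCC/HYP threshold, 50 higher and 53 lower in PCC. Since these ratios chose the genes, the group differences below are a description and carry no test.

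Chromaffin cells of the adrenal medulla make catecholamines, store them in granules and release them by calcium-triggered exocytosis. The cortex around them makes steroids from cholesterol, and pheochromocytomas are tumors of the chromaffin cells that also contain vessels, matrix and immune cells. Interferons induce a shared set of antiviral genes in nearly every cell type, through a response element in the promoters of these genes.

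The 5 WT samples are normal medulla of wildtype rats, the 5 HYP samples are hyperplastic medulla of MENX rats, and the 5 PCC samples are pheochromocytomas of MENX rats, all of the strain labelled Sprague-Dawely. MENX rats carry a frameshift mutation of *Cdkn1b*, so the mutant genotype is shared by HYP and PCC and absent from WT. WT and PCC rats were 7 to 9.5 months old and HYP rats 4 to 5 months. HYP and WT therefore differ in age and genotype at once. PCC and HYP share the genotype and differ in age as well as stage, while PCC and WT differ in genotype as well as stage. Tissue was macrodissected to remove the cortex, and poly-A RNA was sequenced in bulk. The library totals, recovered from counts and FPKM, were 16315018 to 23831269 reads per sample. The study's methods describe the tumors as PCCs or advanced PCCs, and the sample labels do not say which is which, so they were not split. The chromaffin markers *Th* (tyrosine hydroxylase) and *Dbh* (dopamine beta-hydroxylase) reached mean FPKM of 1204 and 1029 in WT, 2321 and 2496 in HYP and 5675 and 3373 in PCC. The steroidogenic gene *Star* was still present at means of 6823, 3937 and 1424 FPKM, so cortex transcripts were abundant in each group. In the sample WT5, chromaffin markers were at 0.238 of the WT mean (median over 11 genes), against 0.820 to 1.58 in the other WT samples. *Cdkn1b* itself had mean FPKM of 29.97, 58.5 and 90.7 in WT, HYP and PCC.

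**Figure D1:**
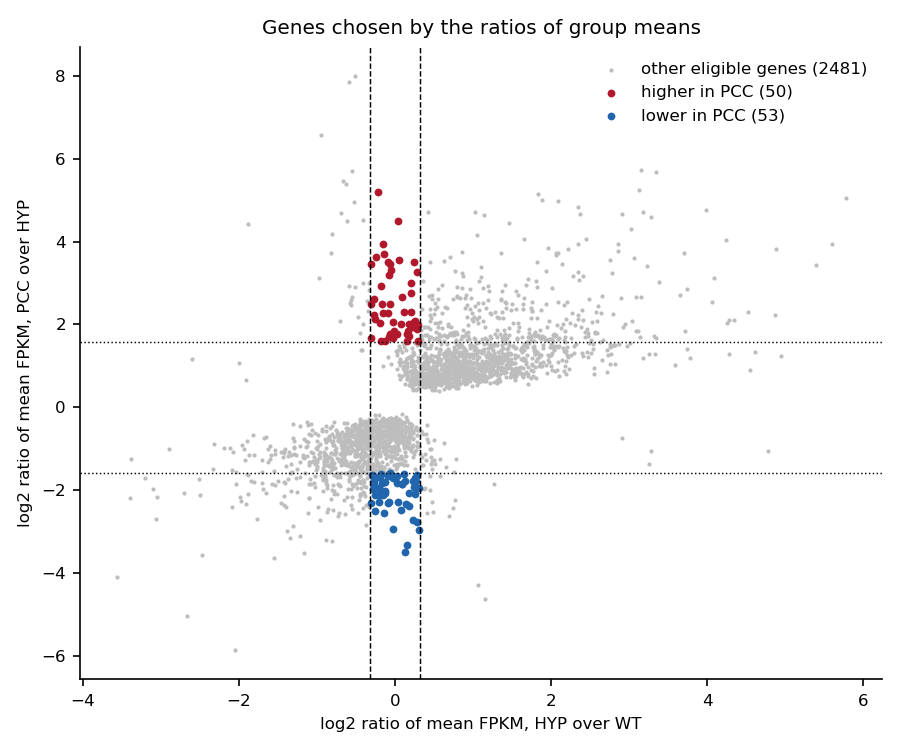
Each point is an eligible gene with finite ratios, placed by the log2 ratio of mean FPKM of HYP over WT (x axis) and of PCC over HYP (y axis). Dashed vertical lines mark the HYP/WT band of 0.8 to 1.25 and dotted horizontal lines the 3-fold PCC/HYP limits. The 50 higher (red) and 53 lower genes (blue) are those beyond the limits inside the band, and the empty strip around a PCC/HYP ratio of 1 reflects that the tables list only genes the authors had called.

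The values do not show that these genes were unchanged at the hyperplastic stage. With 5 samples a group, the 95% interval of the HYP/WT ratio (limma-voom, 101 genes that could be fitted) lay inside the band for 0 of the 101 and reached past a 1.5-fold difference in all 101. Over all 2864 genes fitted, 1 had its interval inside the band, so this count is not particular to the members. The median upper bound was 4.47 times the lower bound for the members and 2.73 times for all genes fitted. The narrowest interval was that of *Cbr1*, 0.738 to 1.63, and the widest that of AABR07027519.1, 0.174 to 6.48. *Gsta1* was the only member that the authors' table of HYP vs. WT lists, with a HYP/WT ratio of 0.812, and edgeR's quasi-likelihood test called it lower in HYP with the authors' size factors or without WT3 but not with TMM scaling of all samples. The interval of the PCC/HYP ratio left out 1 for 97 of the 101 genes and lay past 2-fold for 50, and that of the PCC/WT ratio left out 1 for 98, which the choice of the genes by these ratios favors and which is given as a description. The genes are therefore called by their rule and not as changed only in tumors.

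**Figure D2:**
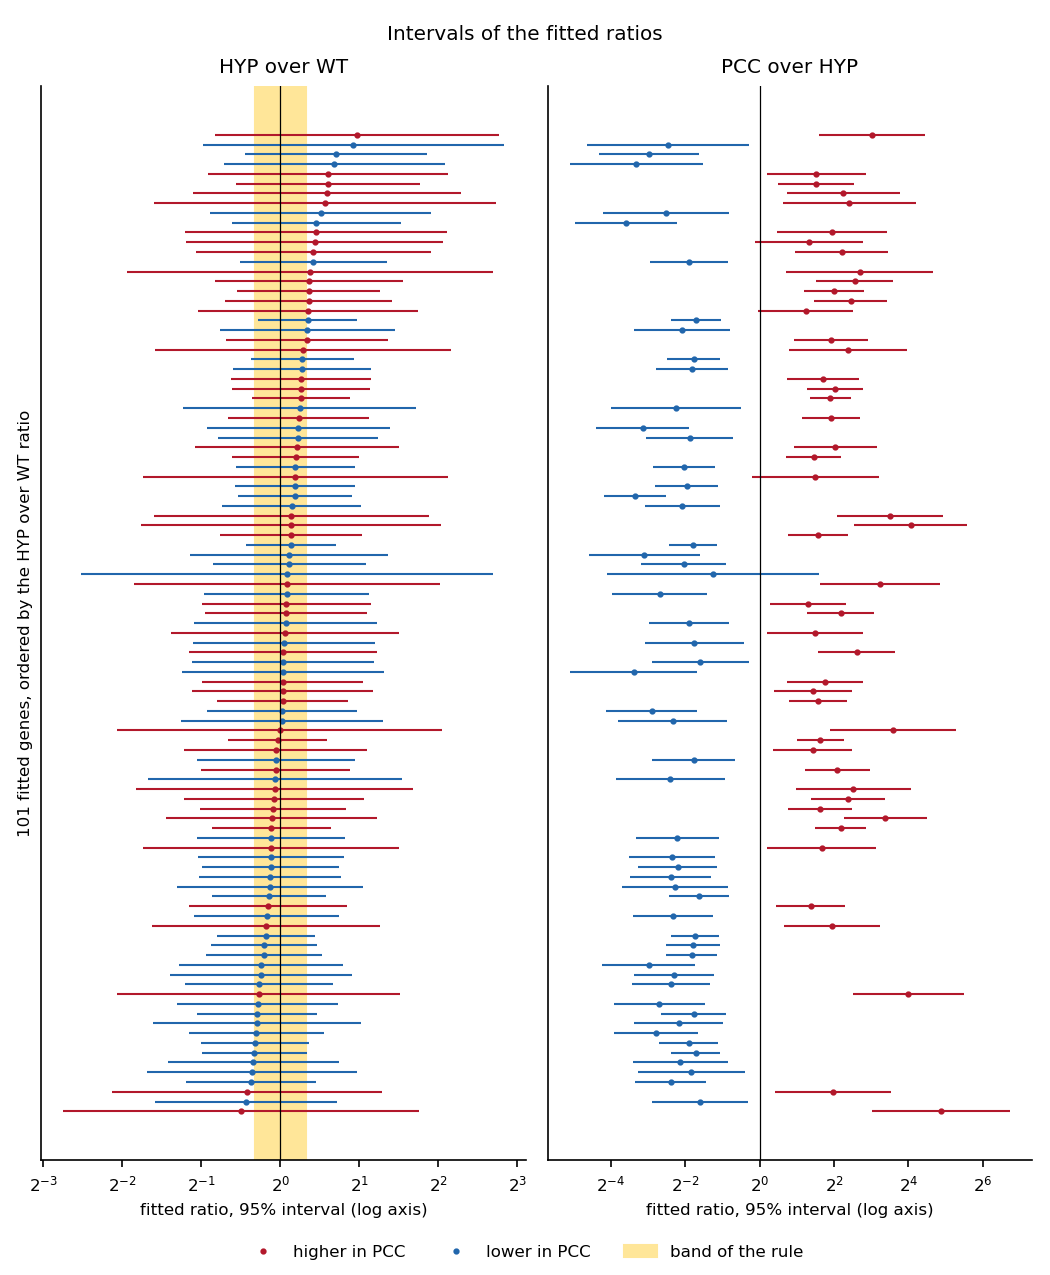
Fitted ratios (points) and 95% intervals (lines) of HYP over WT on the left and PCC over HYP on the right for the 101 fitted genes, on log axes and in the same order in both panels. Every interval on the left extends beyond the yellow band of the rule, while on the right 97 intervals stay on 1 side of a ratio of 1.

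Membership also depended on single rats and on the scale. Leaving out 1 sample at a time left between 65 and 100 of the 103 genes in the set, and 11 remained in all 15 such sets, namely *Ly75*, *Atp8b1*, *Krtcap3*, *Emilin1* and *Slc6a17* among the higher genes and *Il23r*, *Prlr*, *Eya4*, *Hpx*, *Arhgap42* and *Cbr1* among the lower ones. With the authors' size-factor values in place of FPKM, the rule found 56 higher and 39 lower genes, of which 55 were among the 103. TMM scaling gave 48 and 41 (52 among the 103), and medians in place of means 36 and 71 (45 among the 103). Without the sample PCC4 the rule found 35 higher and 37 lower genes. Without HYP3 it found 52 higher and 37 lower, without WT5 54 and 49, and without PCC5 54 and 90.

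Beside the intervals stand the calls and overlaps, which the choice of the genes itself favors. For PCC vs. HYP, edgeR called 35 members higher and 38 lower of 96 tested, where 21.8% of all 3148 genes tested were called higher and 22.6% lower (44.4% in either direction). The calls over all genes were 687 higher and 710 lower with TMM scaling, 891 and 562 with the authors' size factors and 1026 and 426 with library totals recovered from counts and FPKM. For PCC vs. WT it called 33 members higher and 47 lower of 98 tested, where 46.7% and 38.5% of all 7001 genes (85.2% in either direction) were called. For HYP vs. WT the only member tested was not called, where 72.1% of 4108 genes were. In FPKM, the PCC and HYP samples did not overlap in 69 of the 103 genes (50% of the 2975 genes in both PCC tables), the PCC and WT samples in 61 (77.8%), PCC and both other groups in 53 (44.9%), and HYP and WT in 0 (29%). Nothing is read from these shares, since the same contrasts chose the genes. The 2975 genes had all been called by the authors in both PCC comparisons.

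**Figure D3:**
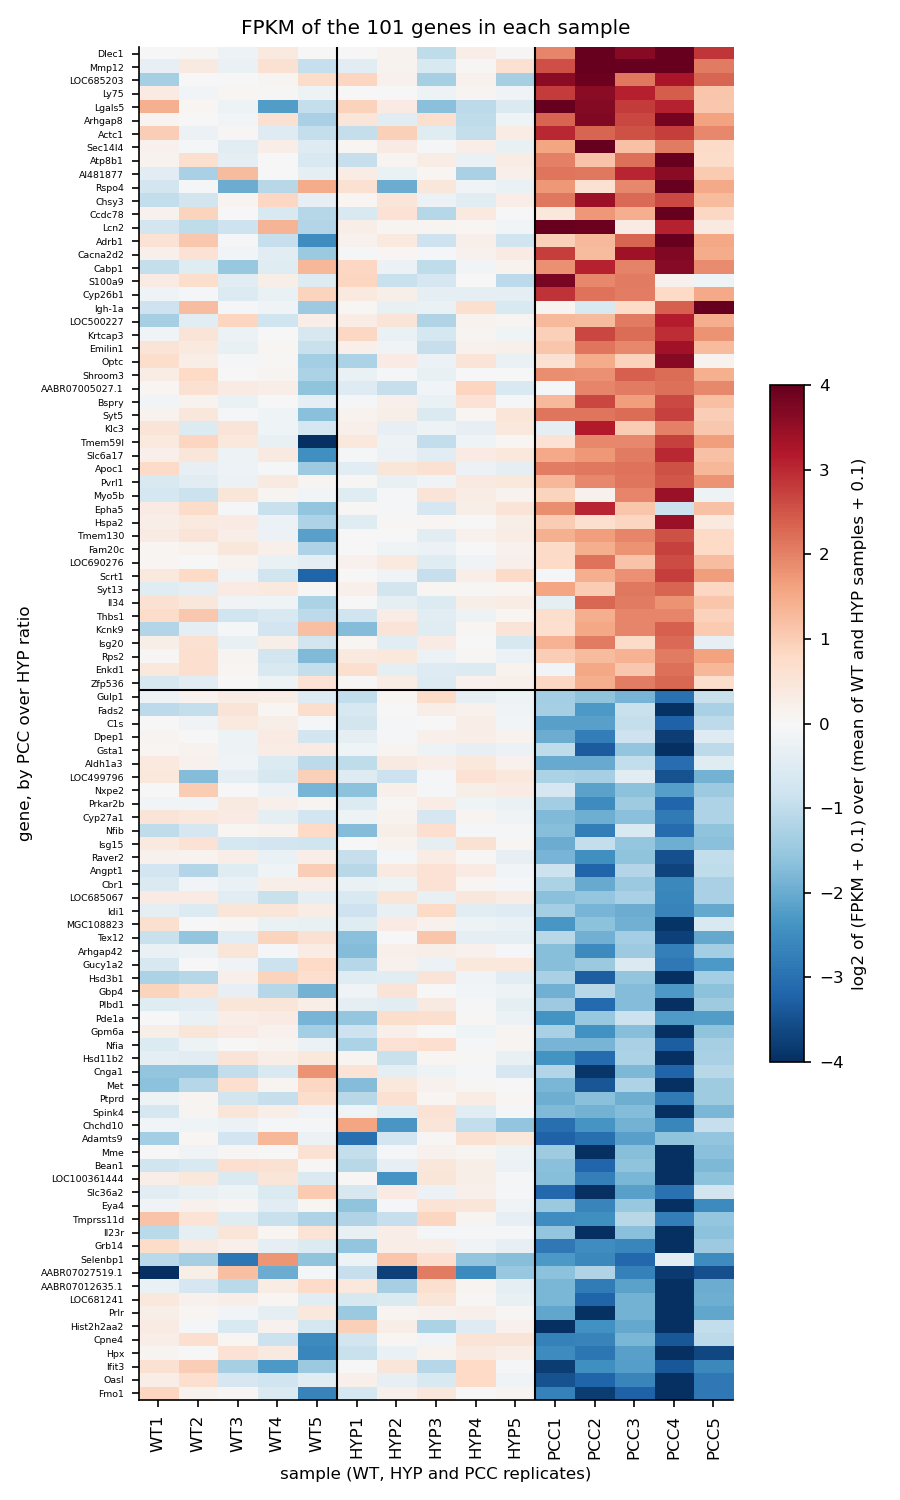
Log2 of FPKM + 0.1 in each sample over the mean of the 10 WT and HYP samples + 0.1, for 101 of the 103 genes (rows, ordered by PCC/HYP ratio) and 15 samples (columns). Red is above and blue below that mean, with the scale ending at 4 in each direction. The PCC columns are mostly red above the line and blue below it by the choice of the genes, and within them PCC4 is the most extreme for many rows.

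A list of interferon-stimulated genes had 6 lower members and 1 higher member of 23 eligible genes (30.4%). Of all eligible genes, 3.98% were members. The list was written after these values had been seen, so nothing is read from its share. *Oasl* (oligoadenylate synthetase-like, an antiviral protein; chromosome 12 from 47444104 to 47456894 of Rn06) had FPKM of 41.9, 56, 22.1, 20.4 and 26 in the WT samples (WT1 to WT5, as for all lists of 5 values), 40.7, 27.9, 22.9, 61.1 and 32.2 in the HYP samples and 3.02, 3.71, 5.59, 1.47 and 4.73 in the tumors. Every tumor lay below every WT and HYP sample. The WT mean was 33.3 ± 15.3 and the HYP mean 36.9 ± 15, against 3.71 ± 1.59 for the tumors (SD, n = 5, as for all values given with ±), a HYP/PCC ratio of 9.96 with a 95% interval of the fitted PCC/HYP ratio from 0.0548 to 0.173.

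*Ifit3* (an interferon-induced tetratricopeptide protein; chromosome 1 from 252906234 to 252911373) had FPKM of 26.3, 34.3, 6.71, 3.38 and 6.02 in WT, 16.9, 23.9, 7.77, 29.8 and 16.5 in HYP and 1.15, 3.03, 3.61, 1.53 and 2.79 in PCC. All HYP samples exceeded all tumors, while WT4 reached into the tumor range. *Isg15*, a ubiquitin-like modifier, had 47, 53.5, 22, 21 and 20.6 FPKM in WT, 36.1, 39.9, 27.2, 54.9 and 37.9 in HYP and 9.1, 18.5, 12.2, 9.17 and 11.3 in PCC, with no overlap of PCC with either group. The guanylate-binding protein gene *Gbp4* and its neighbor LOC685067, annotated as similar to a guanylate-binding protein, lie 9569 bases apart on chromosome 2. *Gbp4* had means of 2.63 ± 1.91, 2.81 ± 0.632 and 0.776 ± 0.274 FPKM in WT, HYP and PCC and LOC685067 had 9.08 ± 3.33, 11 ± 3.43 and 3.21 ± 1. MGC108823, described as similar to an interferon-inducible GTPase, had 3.06 ± 0.905, 2.8 ± 0.667 and 0.808 ± 0.659. WT1, WT2 and HYP4 were the 3 highest samples for both *Oasl* and *Ifit3*. *Isg20*, an interferon-stimulated exonuclease, went the other way with 12, 15.4, 8.29, 11.9 and 6.08 FPKM in WT, 10.8, 7.49, 12.8, 9.89 and 6.45 in HYP and 26.8, 43, 17.1, 49.1 and 8.08 in PCC. PCC5 lay within the range of WT and HYP for *Isg20*, and PCC2 and PCC4 were the highest.

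Promoters of the interferon genes are shown because 6 of these 7 members were lower in the tumors. They run 5′ to 3′ along each gene from 250 bases before to 50 bases after its start, and come from RefSeq on the build GRCr8 (the expression files use Rn06). Capitals mark the interferon-stimulated response element searched as the letters GAAA, any 2 bases and GAAA again on both strands. The windows are chr12:47356243-47356542, minus strand for *Oasl*, chr1:241527076-241527375, plus strand for *Ifit3*, chr2:233978236-233978535, plus strand for *Gbp4* and chr1:142239809-142240108, plus strand for *Isg20*.
Oasl: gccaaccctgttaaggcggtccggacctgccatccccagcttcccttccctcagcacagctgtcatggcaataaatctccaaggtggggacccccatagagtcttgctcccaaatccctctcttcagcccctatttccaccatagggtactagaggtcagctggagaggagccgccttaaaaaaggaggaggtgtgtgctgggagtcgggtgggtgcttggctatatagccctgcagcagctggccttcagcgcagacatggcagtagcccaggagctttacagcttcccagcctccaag
Ifit3: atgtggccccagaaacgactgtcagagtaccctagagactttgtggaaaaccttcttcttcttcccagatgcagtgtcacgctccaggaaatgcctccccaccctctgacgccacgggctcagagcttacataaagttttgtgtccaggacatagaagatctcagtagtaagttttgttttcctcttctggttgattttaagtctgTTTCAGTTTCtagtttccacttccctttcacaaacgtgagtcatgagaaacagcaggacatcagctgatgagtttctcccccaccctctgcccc
Gbp4: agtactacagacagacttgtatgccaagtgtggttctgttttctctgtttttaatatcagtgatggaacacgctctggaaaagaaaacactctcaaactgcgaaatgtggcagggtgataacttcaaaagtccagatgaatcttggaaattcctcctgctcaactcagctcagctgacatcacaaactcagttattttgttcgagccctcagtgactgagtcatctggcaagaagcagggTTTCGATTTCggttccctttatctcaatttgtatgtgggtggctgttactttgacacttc
Isg20: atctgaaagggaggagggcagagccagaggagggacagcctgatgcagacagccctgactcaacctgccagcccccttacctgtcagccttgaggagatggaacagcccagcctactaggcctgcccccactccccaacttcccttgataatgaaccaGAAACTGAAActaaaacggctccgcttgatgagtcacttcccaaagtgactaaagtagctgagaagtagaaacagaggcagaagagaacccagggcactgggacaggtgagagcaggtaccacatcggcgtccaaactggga
The element began 44 bases before the start in *Ifit3*, 10 bases before it in *Gbp4* and 92 bases before it in *Isg20*, and these letters did not occur in the *Oasl* window. No promoter was matched for *Isg15*, LOC685067 and MGC108823. The element was present in 6 of the 40 lower genes with a promoter (15%), in 2 of the 31 higher genes (6.45%) and in 3.77% of all 27457 promoters of the same length. Of the 1885 eligible genes with a promoter, 3.45% had it. The other lower genes with it were *Tex12*, *Gucy1a2*, *Plbd1* and *Il23r*, and the other higher gene was *Lgals5*. A match of letters is not a bound site.

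The whole list of interferon-stimulated genes, written after these values had been seen, held 41 listed genes. For PCC vs. HYP, 28 had been called by the authors and could be tested, of which edgeR called 22 lower and 1 (*Ifitm5*) higher. Over all 3148 genes tested, 22.6% were called lower and 21.8% higher. Leaving out the members, 16 of the other 21 were called lower and 1 higher, and 9 and 2 with recovered library totals. The median log2 fold change of the 28 genes was -1.24, against 0.43 over all 3148 genes tested. With the authors' size factors 20 were called lower and 1 higher (median -1.13, all genes 0.54), and with recovered library totals 14 and 3 (median -1.02, all genes 0.66). For PCC vs. WT, 22 of 34 were called lower and 4 higher, where 38.5% of all 7001 genes tested were called lower and 46.7% higher. For HYP vs. WT, 12 genes that were not members were tested, of which 6 were called lower and 2 higher. Over all 4108 genes tested there, 32.5% were called lower and 39.5% higher. The median of the 12 genes in that comparison was -0.71 on the log2 scale, against -0.37 over all genes tested. The level of this list without its members (median over 23 genes of FPKM over the WT mean) lay between 0.814 and 1.12 in WT samples, 0.897 and 1.27 in HYP samples and 0.411 and 0.813 in tumors. A broader immune list, which mixes interferon genes with receptors, cytokines and complement, had 4 higher and 6 lower members of 58 eligible genes (17.2%), where 3.98% of all eligible genes were members. In bulk tissue, fewer cells of a type and less RNA per cell cannot be told apart.

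Enzymes of steroid, lipid and xenobiotic metabolism were the largest functional group among the lower genes, with 9 lower and 2 higher members of 86 eligible genes (12.8%). *Fmo1*, a flavin-containing monooxygenase that oxidizes drugs and other foreign compounds, had FPKM of 20.2, 12.5, 11.5, 7.5 and 1.68 in WT, 6.88, 12.8, 15.4, 11.3 and 12.1 in HYP and 1.65, 0.718, 1.11, 0.322 and 1.46 in PCC. WT5 was close to the tumors, and PCC1 was just below it. The HYP/PCC ratio of 11.1 was the highest of the 53 lower genes (95% interval of the fitted PCC/HYP ratio 0.032 to 0.216).

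*Hsd3b1*, which makes progesterone and other 3-keto steroids in the cortex, had FPKM of 140.1, 152, 391, 626 and 538 in WT, 242, 254, 480.4, 308 and 248 in HYP and 138, 34.6, 113, 8.2 and 131 in PCC. The lowest WT sample was just above the highest tumor, and PCC4 was far below the other tumors. *Hsd11b2*, which inactivates glucocorticoids, had 29.2, 27.9, 55.4, 46.6 and 51.6 in WT, 41.3, 20.8, 40.9, 39.4 and 31.1 in HYP and 7.21, 4.46, 16, 1.3 and 15.4 in PCC, with no overlap of the tumors with either group. *Fads2* (a desaturase of fatty acids) had means of 395 ± 200.1, 377 ± 86 and 125 ± 72.9 FPKM in WT, HYP and PCC, *Gsta1* (a glutathione transferase) 651 ± 92.7, 528 ± 61.9 and 171 ± 125, and *Cyp27a1* (a sterol hydroxylase) 47.3 ± 16.3, 40.1 ± 8.52 and 12.5 ± 4.49. *Idi1* of the isoprenoid pathway, the carbonyl reductase *Cbr1* and the retinaldehyde dehydrogenase *Aldh1a3* complete the group, with HYP/PCC ratios of 3.45, 3.4 and 3.09. The 2 higher members were *Cyp26b1*, which degrades retinoic acid (0.243 ± 0.0966 FPKM in HYP and 1.38 ± 0.761 in PCC), and the apolipoprotein gene *Apoc1* (3.75 to 7.77 FPKM in HYP and 12.9 to 29.6 in PCC).

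Markers of the adrenal cortex were also lowest in PCC, and their mean level was lower in HYP than in WT. The members were chosen to lie within the HYP/WT band, so nothing is read from the difference between them and these markers. Over the 9 cortex markers with values in all samples (*Cyp21a1*, *Scarb1*, *Akr1b7*, *Fdx1*, *Nr5a1*, *Star*, *Hsd3b1*, *Mrap* and *Fdxr*), the median level over the WT mean lay between 0.709 and 1.31 in WT samples, 0.331 and 0.753 in HYP samples and 0.0295 and 0.444 in tumors. The mean level was 0.985 in WT and 0.560 in HYP. PCC4 had the lowest level and PCC2 the next, at 0.0781. *Hsd3b1* is both a marker and a member. None of the 9 was at 0 in every sample, and their summed FPKM ran from 20934 to 37492 in WT, from 10295 to 23956 in HYP and from 757 to 12080 in PCC. The part of these cortex transcripts in the lower genes was not tested.

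**Figure D4:**
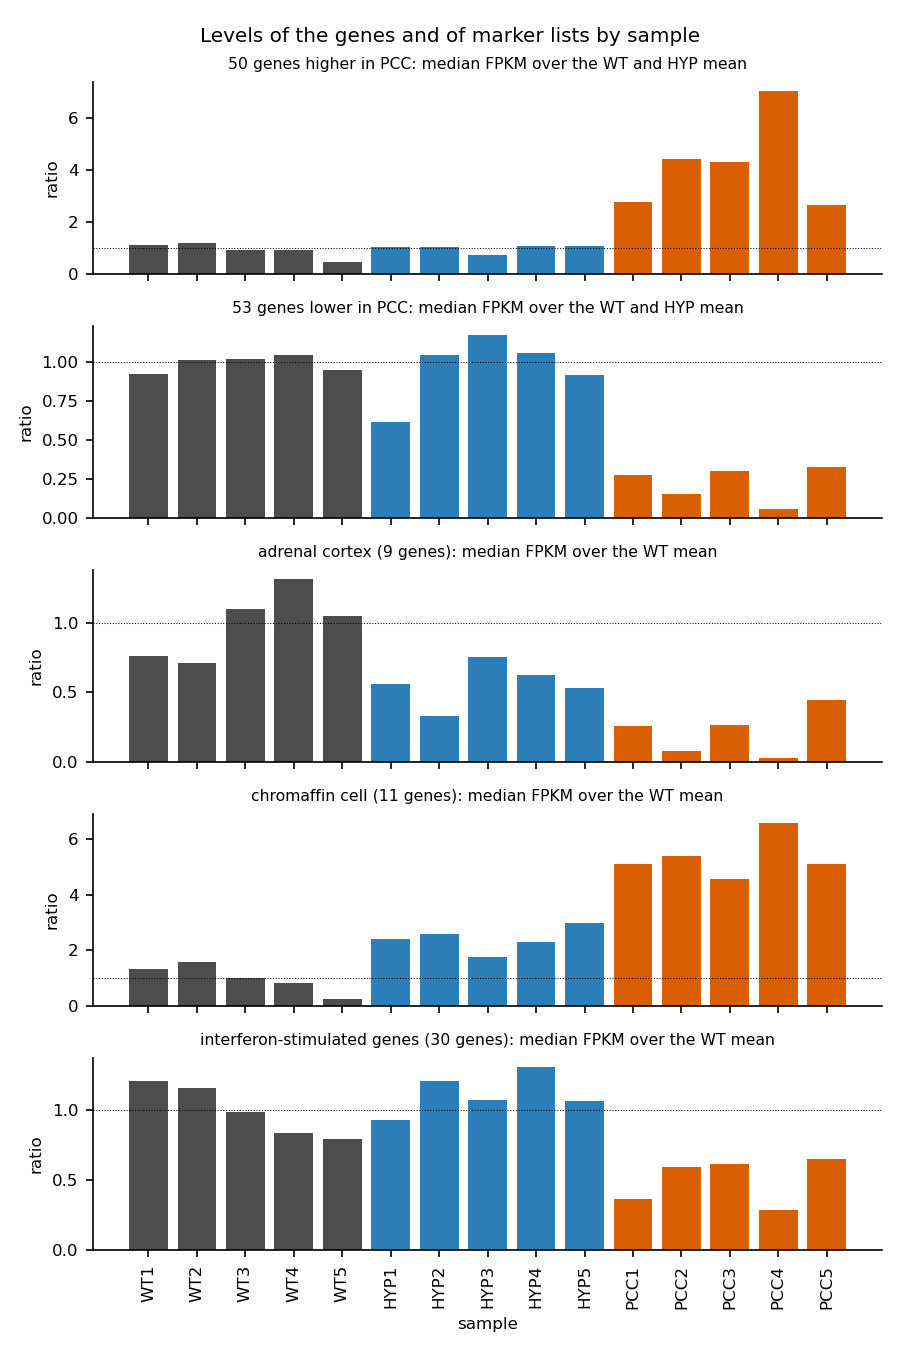
Bars give, for each of the 15 samples, the median FPKM of the 50 higher and the 53 lower genes over their mean in the WT and HYP samples, and below them the median level over the WT mean of the cortex, chromaffin and interferon lists, with all axes starting at 0. PCC4 has the highest bar of the higher genes (7.06), the lowest bar of the lower genes (0.0605), the lowest cortex bar (0.0295) and the lowest interferon bar (0.284). The first panels hold the chosen genes, and the interferon list includes 7 of them.

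Of the intracellular signaling list, 5 genes were lower and 3 higher members of 142 eligible genes (5.63%), of growth factors and receptor tyrosine kinases 2 were lower and 0 higher of 22 (9.09%), and of G protein coupled receptors 0 were lower and 1 higher of 39 (2.56%). *Prlr*, the prolactin receptor, had FPKM of 41.6, 37.1, 32.6, 27 and 46.7 in WT, 12.4, 37.7, 39.7, 40.4 and 36.7 in HYP and 8.2, 2.19, 9.38, 0.54 and 8.21 in PCC. HYP1 stood apart from the other HYP samples but above all tumors, and the HYP/PCC ratio was 5.86 (95% interval of the fitted PCC/HYP ratio 0.0534 to 0.298). *Il23r*, the receptor of interleukin 23, had 4.35, 7.06, 13.2, 9.81 and 13.7 in WT, 7.59, 11.3, 8.86, 8.83 and 8.78 in HYP and 3.07, 0.308, 2.84, 0.0287 and 2.9 in PCC. Tumors PCC2 and PCC4 were near 0 and the other tumors just below the lowest WT sample.

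*Met*, the receptor of hepatocyte growth factor, had FPKM of 3.78, 5.46, 19.3, 13.1 and 21.4 in WT, 3.56, 16.4, 13.6, 12.4 and 11.9 in HYP and 3.36, 1.03, 5.11, 0.392 and 4.41 in PCC. Its groups overlapped, with WT1, WT2 and HYP1 within or near the range of the tumors. *Angpt1*, a ligand of the endothelial receptor Tek, had means of 3.86 ± 2.61, 4.55 ± 1.72 and 1.34 ± 0.965 in WT, HYP and PCC. The adaptor *Grb14*, which restrains insulin receptor signaling, had 41.4 ± 14.8, 33.3 ± 13.5 and 6.7 ± 4.19, with HYP1 (12.4 to 45.4 over the HYP samples) below the highest tumor. *Ptprd*, a receptor tyrosine phosphatase, had 2.66 to 8.35 FPKM in WT, 2.31 to 7.81 in HYP and 0.629 to 1.86 in PCC, without overlap of PCC with either.

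*Prkar2b*, a regulatory subunit of protein kinase A, had 136, 135, 187, 167 and 157 FPKM in WT, 101, 152, 179.7, 129 and 121 in HYP and 55.7, 25.6, 54.1, 16.2 and 61.5 in PCC, and all tumors were below all other samples. The phosphodiesterase *Pde1a*, the only member on the study's qRT-PCR array, had HYP and PCC means of 4.37 ± 2.2 and 1.14 ± 0.633, the guanylate cyclase subunit *Gucy1a2* 1.39 ± 0.553 and 0.387 ± 0.301, and the cyclic nucleotide-gated channel *Cnga1* 1.67 ± 0.603 and 0.419 ± 0.348. WT5 had 6.49 FPKM of *Cnga1*, above all other samples, and edgeR called this gene in neither PCC comparison. The same held for *Angpt1*, *Isg20*, *S100a9*, *Igh-1a*, *Myo5b*, *Epha5*, *Hspa2* and *Scrt1*, among others. *Met*, *Hsd3b1*, *Mme* and *Il23r*, among others, were called in PCC vs. WT but not in PCC vs. HYP. Conversely, *Thbs1*, *Kcnk9* and *Tmem59l* were called in PCC vs. HYP but not in PCC vs. WT. The fitted PCC/HYP intervals of *Igh-1a*, *Myo5b* and *Epha5* included 1. HYP1 was lowest of its group for 36 of the 53 lower genes, and WT5 for 35 of the 50 higher genes, at a median of 0.457 of the WT and HYP mean.

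Of the 80 eligible genes on a list of transcription regulators, 3 were lower members and 0 were higher ones (3.75%). The list is not complete, since the higher members *Scrt1* and *Zfp536* are not on it. The counts do not show that no regulator was higher. *Nfia* and *Nfib* encode related nuclear factor I proteins. *Nfia* had 9.58, 12.1, 14.2, 15.1 and 12 FPKM in WT, 5.81, 20.9, 22.3, 13.7 and 15.4 in HYP and 3.81, 3.8, 5.65, 1.34 and 5.59 in PCC, where PCC3 lay just below HYP1, and *Nfib* had 4.62, 5.93, 10.1, 10.6 and 16.7 in WT samples, 2.83, 11.2, 15.3, 9.09 and 8.98 in HYP samples and 2.86, 1.31, 6.28, 1.05 and 3.09 in tumors. *Nfib* overlapped between all groups. *Eya4*, a transcriptional coactivator with phosphatase activity, had means of 7.77 ± 1.22, 8 ± 3.67 and 1.65 ± 1.06 in WT, HYP and PCC.

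Peptidases, inhibitors and secreted proteins completed the named lower genes. *Mme* (neprilysin, which degrades peptides at the cell surface) had 16.5 to 28 FPKM in WT, 9.31 to 20.7 in HYP and 0.37 to 6.76 in PCC, without overlap. The matrix protease *Adamts9* had means of 9.73 ± 6.1 and 2.26 ± 1.15 in HYP and PCC, and the Kazal-type inhibitor *Spink4* 12.8 ± 4.31 and 3.07 ± 1.59. *Hpx*, the heme-binding plasma protein hemopexin, had 100.2, 94.1, 138, 118 and 15.2 FPKM in WT, 49.5, 76.5, 101, 119 and 110.2 in HYP and 16.2, 12.3, 20.6, 2.99 and 7.28 in PCC. All HYP samples were above all tumors for *Hpx*, and WT5 was within the tumor range. *Plbd1*, a phospholipase B domain protein, had means of 148 ± 47, 122.8 ± 31.1 and 32.3 ± 20.8. *Bean1* had 37.9 ± 16.9, 32.9 ± 12.4 and 7.6 ± 4.59, and *Slc36a2*, a proton-coupled amino acid transporter, had 3.55 ± 2.04, 3.35 ± 0.858 and 0.694 ± 0.789. The complement protease *C1s* had 17.6 to 35.3 FPKM in HYP and 3.04 to 15 in PCC.

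**Figure D5:**
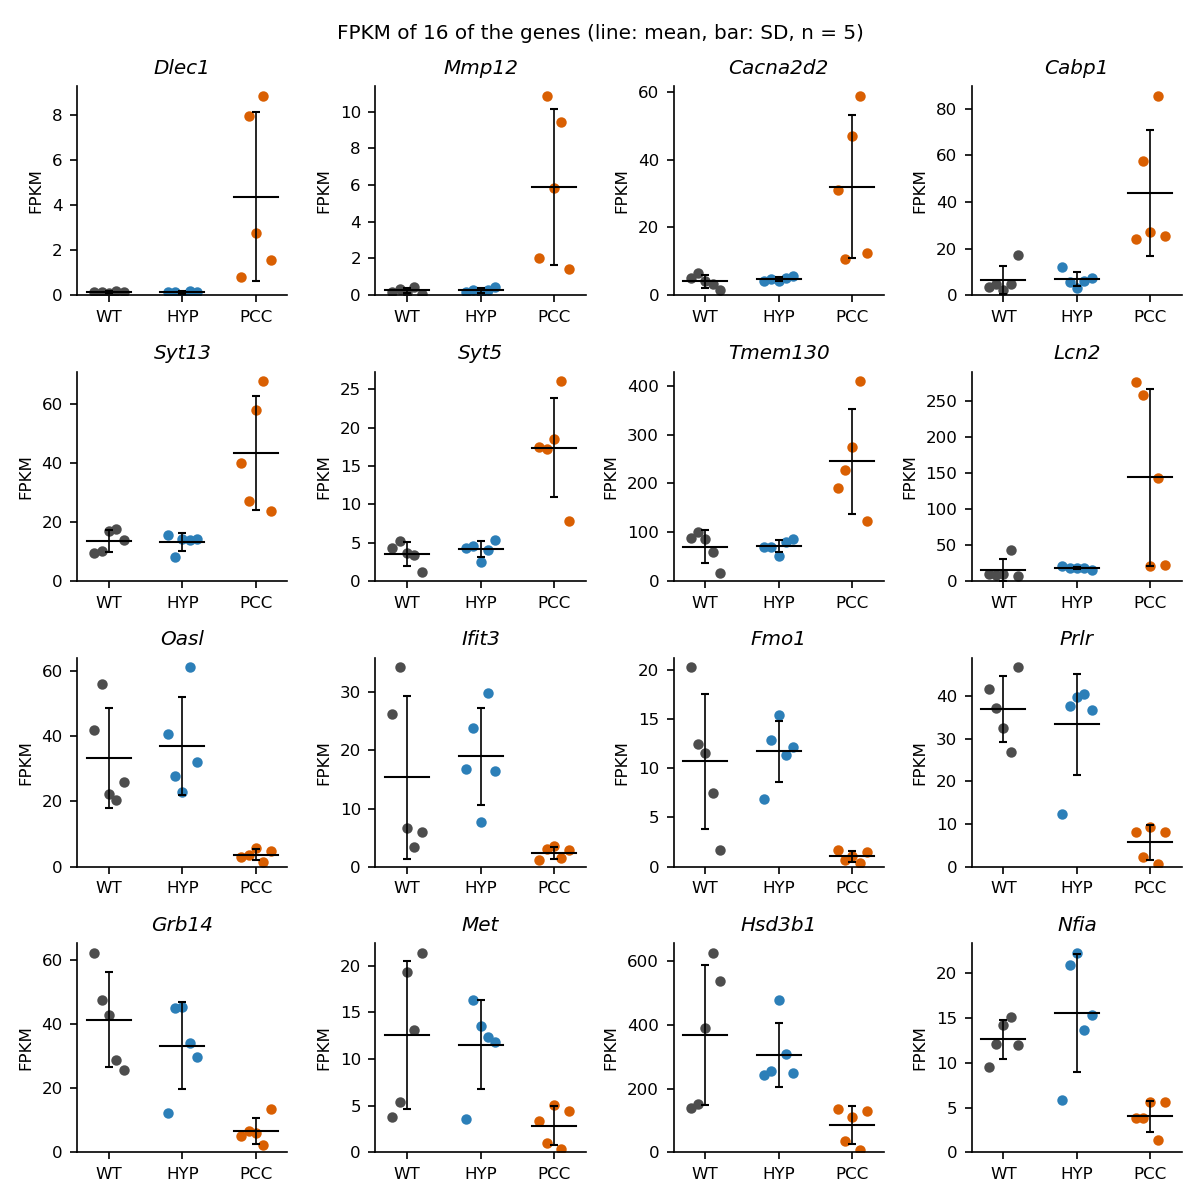
FPKM of 16 of the 103 genes in each WT (grey), HYP (blue) and PCC (orange) sample, with the mean as a line and the SD as a bar (n = 5), the bar cut at 0. The first 8 genes are higher and the last 8 lower in PCC, and the spread among the 5 tumors is wide for *Dlec1*, *Mmp12* and *Lcn2*.

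Of the lists for neurons and release, secretory and exocytosis genes had 2 higher and 0 lower members of 53 eligible genes (3.77%), neural adhesion genes 1 and 0 of 31 (3.23%) and ion channels 2 and 1 of 34 (8.82%), against 3.98% of all eligible genes. *Cacna2d2*, an auxiliary subunit of voltage-gated calcium channels, had FPKM of 5.08, 6.61, 4.09, 3.2 and 1.51 in WT, 4.2, 4.68, 4.32, 4.95 and 5.56 in HYP and 31, 10.7, 46.9, 58.9 and 12.5 in PCC, and all tumors exceeded all other samples. *Cabp1*, a neuronal calcium-binding protein, had 3.46, 4.81, 2.3, 4.78 and 17.2 in WT, 12, 5.74, 3.27, 6.29 and 7.38 in HYP and 23.9, 57.5, 27, 85.5 and 25.3 in PCC. WT5 was the highest of the WT and HYP samples for *Cabp1* and still below every tumor.

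The synaptotagmins *Syt5* and *Syt13*, a family of vesicle proteins, had means of 3.52 ± 1.52, 4.16 ± 1.04 and 17.4 ± 6.49 and of 13.7 ± 3.77, 13.2 ± 2.95 and 43.4 ± 19.2 in WT, HYP and PCC. *Slc6a17*, a vesicular transporter of neutral amino acids, had 12.4, 15.1, 9.24, 13.7 and 1.86 FPKM in WT, 10.3, 9.06, 7.88, 13.5 and 14.4 in HYP and 30.9, 36.1, 45.9, 87.1 and 24.4 in PCC. WT5 was far below the other WT samples for *Slc6a17*.

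The potassium leak channel *Kcnk9* had FPKM of 10.9, 19, 23, 14.2 and 55.8 in WT, 7.24, 34.9, 17.5, 26 and 35.2 in HYP and 38.6, 72, 95.4, 128 and 50.8 in PCC. PCC1 and PCC5 lay below WT5, so the tumors overlapped with WT but not with HYP. *Tmem130*, a transmembrane protein, had the highest mean of the 50 higher genes with 245 ± 107 FPKM in PCC against 71.4 ± 13 in HYP and 69.9 ± 33.9 in WT. *Scrt1*, a neural zinc-finger repressor, had 0.366 to 7.39, 2.17 to 7.14 and 3.97 to 29.2 FPKM in WT, HYP and PCC with overlap, and *Epha5*, a receptor for ephrins, had 2.25, 5.32, 1.29, 0.261 and 1.38 in the tumors with PCC4 below its HYP range. Beside these genes, the chromaffin markers (11 genes) were at 0.238 to 1.58 of the WT mean in WT, 1.74 to 2.98 in HYP and 4.56 to 6.58 in PCC, and no chromaffin marker was a member. Markers of sympathetic neurons and neuroblasts (8 genes, 0 members) were at 0.174 to 1.52, 2.96 to 5.60 and 4.43 to 8.57. The part of such cells in these genes was not tested.

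A list of extracellular matrix genes, integrins and matrix proteases had 3 higher members and 1 lower member of 35 eligible genes (11.4%). Matrix-related members outside the list are not in this count. Fibroblast markers (6 genes, 0 members) were at 0.797 to 1.60 of the WT mean in WT samples, 2.00 to 3.47 in HYP samples and 2.80 to 5.43 in tumors, and their part in these genes was not tested. *Mmp12*, the macrophage elastase, had FPKM of 0.186, 0.357, 0.198, 0.441 and 0.0882 in WT, 0.162, 0.298, 0.137, 0.268 and 0.445 in HYP and 2.02, 10.9, 5.84, 9.43 and 1.4 in PCC. All tumors exceeded all other samples, and the PCC/HYP ratio was 22.6 (95% interval of the fitted ratio 5.77 to 48). *Emilin1*, an elastic fiber glycoprotein, had 8.53, 17.2, 15, 41 and 9.5 in the tumors and 1.98 to 4.5 over the HYP samples, and the matricellular *Thbs1* had 7.08, 11.9, 16.8, 17 and 8.24 and 2.41 to 5.33. *Chsy3*, which extends chondroitin sulfate chains, had means of 0.108 ± 0.0534 FPKM in HYP and 1.04 ± 0.625 in PCC.

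*Lcn2* (lipocalin 2, an iron-siderophore-binding protein of neutrophils and inflamed epithelia) had FPKM of 10.03, 8.35, 9.57, 43.1 and 7.4 in WT, 20.4, 18.3, 18.3, 17.9 and 15.6 in HYP and 276, 258, 21.1, 142 and 21.5 in PCC. PCC3 and PCC5 were barely above HYP and below WT4. *S100a9*, a calcium-binding protein of neutrophils and monocytes, had 19.9, 5.35, 5.96, 1.53 and 1.16 in PCC against 0.603 to 2.53 in HYP, and the immunoglobulin constant region gene *Igh-1a* had 1.3, 0.748, 2.02, 6.65 and 22 against 0.742 to 1.92. Each was high in a different tumor, *S100a9* in PCC1 and *Igh-1a* in PCC5.

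*Ly75*, an endocytic receptor of dendritic cells, had 0.174, 0.0985, 0.129, 0.123 and 0.0862 FPKM in WT, 0.116, 0.119, 0.0893, 0.131 and 0.0966 in HYP and 1.41, 2.52, 1.79, 1.06 and 0.37 in PCC, without overlap. *Lgals5*, a galectin of reticulocytes, had 1.34, 0.849, 0.135, 0.264 and 0.409 in HYP and 14.4, 9.46, 5.11, 6.34 and 1.51 in PCC, with WT1 (1.94) above PCC5. *Il34*, a ligand of the macrophage colony-stimulating factor receptor, had 1.79 to 3.3 in HYP and 1.99 to 13.4 in PCC. The marker list of macrophages and leukocytes had 1 gene with values in all samples, *Cd163*, at 2.42 to 3.63 of the WT mean in HYP and 0.536 to 4.61 in PCC, and the part of such cells was not tested.

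The highest PCC/HYP ratio of the 103 genes belonged to *Dlec1*, a gene deleted in lung and esophageal cancer (chromosome 8 from 127789048 to 127834637). Its FPKM were 0.129, 0.133, 0.0981, 0.197 and 0.133 in WT, 0.124, 0.149, 0.0119, 0.174 and 0.134 in HYP and 0.788, 7.94, 2.75, 8.85 and 1.56 in PCC, a ratio of 36.9 with a 95% interval of the fitted ratio from 8.15 to 106. The hypothetical gene LOC685203 had at most 2 counts in any WT or HYP sample, under the floor of 3 counts, and up to 23 in PCC, so its ratios rest on very few reads. *Arhgap8*, a GTPase-activating protein, had 1.39, 3.81, 1.79, 4.08 and 0.814 in the tumors and 0.0469 to 0.359 in HYP. *Actc1*, the cardiac alpha-actin, had 1.49, 0.891, 1.04, 1.23 and 0.635 in the tumors and 0 to 0.279 in HYP, and all 5 tumors lay above all other samples.

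In some higher genes a single tumor carried the mean. In 12 of the 50, 1 tumor held over 50% of the summed PCC FPKM, and the share of the top tumor ran from 26.5 to 75.7% with a median of 36.8%. *Sec14l4*, a lipid-binding protein, had 0.763, 8.7, 0.552, 1.1 and 0.386 in PCC, with 75.7% in PCC2. The phospholipid flippase *Atp8b1* had 2.6, 1.38, 2.98, 22.5 and 1.01, the Wnt agonist *Rspo4* 1.22, 0.504, 1.4, 10.3 and 1.03, the beta-1 adrenoceptor *Adrb1* 0.988, 1.28, 2.74, 10.1 and 1.55, the heat shock protein *Hspa2* 22.4, 17.7, 20.02, 121 and 14.4 and the motor protein *Myo5b* 1.53, 0.895, 3.29, 9.52 and 0.668, each with its peak in PCC4.

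Counted tumor by tumor, 11 of the 50 higher genes exceeded 3 times the HYP mean in all 5 tumors, 9 in 4, 17 in 3, 12 in 2 and 1 in 1. Of the 53 lower genes, 8 were at or below 0.333 of the HYP mean in all 5 tumors, 19 in 4, 20 in 3 and 6 in 2. PCC4 was the highest tumor for 33 of the higher genes (66.0%) and the lowest for 44 of the lower genes (83.0%). PCC5 passed the limit in 22 of the higher and 23 of the lower genes, PCC1 in 23 and 35, PCC3 in 39 and 30, PCC2 in 36 and 49 and PCC4 in 47 and 51. The median level of the higher genes over their WT and HYP mean was 2.78, 4.42, 4.33, 7.06 and 2.68 in PCC1 to PCC5, and that of the lower genes was 0.279, 0.157, 0.300, 0.0605 and 0.327. The eligible genes that passed the same PCC/HYP limit outside the HYP/WT band had PCC4 as the highest tumor in 70.1% of 345 higher genes and as the lowest in 71.5% of 151 lower genes. The difference between these shares and those of the 103 was not tested.

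Level and spread of the 103 genes are given as a description, since the 3-fold limit itself bears on both. The median of the largest group mean was 7.37 FPKM against 18.9 for the 2586 eligible genes. The median coefficient of variation over WT, HYP and PCC samples was 0.477, 0.361 and 0.603, against 0.312, 0.225 and 0.353 for the eligible genes. Median gene length, as given with the deposited values, was 1920 bases, against 2487.5 for the eligible genes. It was 1770.5 for the higher and 1975 for the lower genes. The other eligible genes past the same PCC/HYP limit had median coefficients of variation in PCC of 0.594 (higher) and 0.665 (lower), against 0.6 and 0.605 among the 103. Their median largest mean was 6.89 FPKM (higher) and 33.7 FPKM (lower), against 5.44 and 11.3 among the 103, and these differences were not tested.

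The genes were spread over 19 of the 20 autosomes, from 0 of 70 eligible genes on chromosome 15 to 5 of 60 on chromosome 19 (8.33%). Some members lay within 500000 bases of another member. *Gbp4* and LOC685067 were both lower with no listed gene between them, *Klc3* and *Apoc1* were both higher 291105 bases apart on chromosome 1, and *Krtcap3* and *Emilin1* were both higher 334560 bases apart on chromosome 6. *Cabp1* and *Oasl* on chromosome 12 and *Enkd1* and *Hsd11b2* on chromosome 19 went in opposite directions. RefSeq promoters were matched for 71 of the 103 genes. They had a median of 17 CpG dinucleotides in 300 bases for the higher genes and 9.5 for the lower ones, against 20 for the eligible genes and 7 for all promoters, and a median GC content of 60.7 and 55.3%, against 61.3 and 52.3%. The cAMP response element TGACGTCA was found among the 71 in the window of *Tmem59l* alone. The extended site CAAGGTCA of nuclear receptors was found in that of *Cyp27a1* alone (both searched on both strands). The hypoxia response core TACGTG was found in 0 of the 71. In this order, the shares were 3.45, 0.743 and 3.5% of eligible genes with a promoter and 1.91, 1.48 and 3.49% of all promoters.

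Genes at the edges of the rule show how little separates members from other genes. *Zfp536* was just inside with a PCC/HYP ratio of 3.01 and AABR07054000.1 just outside with 2.95, while on the lower side *Gulp1* had 0.332 and *Gimap7* 0.334. For the HYP/WT ratio, *Grb14* was inside at 0.806 and LOC681458 outside at 0.797, and *Nfia* was inside at 1.24 and *Asrgl1* outside at 1.255. LOC499796 had a largest mean of 1.03 FPKM and *Gnrhr*, below the minimum, 0.967.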

How the data were processed

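RNA-seq of 15 rat adrenal medulla samples was analysed, with 5 WT, 5 HYP and 5 PCC samples grouped by their titles. Where nothing in the labels says otherwise, each sample is taken as 1 rat, and errors measure the spread between samples. Per the submitters' processing notes, reads were aligned with HISAT2 2.0.5 (to Rn06) and counted with featureCounts 1.5.0-p3; the strand setting is not given in the sources used here. The deposited data are 3 tables, 1 per comparison, and the authors' tables list only genes they had called (4406, 3360 and 7683 for HYP vs. WT, PCC vs. HYP and PCC vs. WT), with raw read counts per gene, FPKM, and normalized signal, which is the counts divided by a size factor per sample. The authors' deposited p-values and log2 fold changes hold their own comparisons; only the relation of raw to adjusted p-values was read, to recover how many genes they had tested (18057, 17454 and 18790). Values of a gene did not differ between tables.

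The members were found by the stated rule on group means of FPKM. The members and the gene lists were chosen with earlier results of these data known. Counts were fitted with edgeR 4.0.16 (TMM, filterByExpr, quasi-likelihood test) in R 4.3.3, with Benjamini-Hochberg adjustment over the full number of genes they had tested and calls at an adjusted p under 0.05. Intervals came from limma 3.58.1 (voom) over the genes of both PCC tables, on library totals recovered from counts and FPKM of genes with at least 20 counts. The fitted ratio is on a log scale and differs from the ratio of means. DESeq2 1.42.0 was an alternative. Python 3.11.15 with numpy 2.4.6, pandas 2.3.3, scipy 1.17.1 and matplotlib 3.10.9 served the other steps. Fits were tested on simulated data. The 58 genes named by rule had the 10 largest and 10 smallest PCC/HYP ratios without overlap, the 5 highest levels in each direction, the 2 largest changes per direction in each of 18 function lists, a place beside a threshold or a neighboring member; others were named after their values were seen. *Rps2*, *Hist2h2aa2*, *Gsta1*, *Hsd3b1*, *Igh-1a*, *Lgals5*, *Actc1* and the guanylate-binding genes have close copies or overlapping relatives among which the counting may split reads, so their values are uncertain. Some items are not reported here.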

Additional observations from a re-analysis of the deposited data

Results flagged for a closer look

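Within each group of 5 samples, 207 sets of values over 69 named genes were searched for a sample far from the other 4 (Dixon's test), and 23 were flagged. For genes chosen without regard to their values, chance flags about 1 of 20 sets. That rate does not apply here, since 58 genes were picked by ratio or level and 11 after their values were seen. WT5 accounted for 7 of the 23 flags, although it was the lowest WT sample for 35 of the 50 higher genes. Its FPKM stood above the other WT samples for *Cabp1* (17.2), *Slc36a2* (7.16), *Mme* (28.0), *Kcnk9* (55.8), *Rspo4* (0.996), *Cnga1* (6.49) and *Cyp26b1* (0.567). The chromaffin markers of WT5 were at 0.238 of the WT mean, and their part in these values was not tested.

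PCC4 accounted for 6. Its FPKM stood above the other tumors for *Atp8b1* (22.5), *Adrb1* (10.1), *Rspo4* (10.3), *Emilin1* (41.0) and *Hspa2* (121) and below them for *Spink4* (0.236).

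The remaining tumors flagged were PCC2 for *Sec14l4* (8.70 FPKM), PCC1 for *S100a9* (19.9) and PCC5 for *Igh-1a* (22), each above the others. Among HYP samples, HYP1 was below the others for *Prlr* (12.4 FPKM), HYP2 below for *Syt13* (8.09) and above for *Gbp4* (3.91), and HYP3 above for *Spink4* (20.2) and *Hsd3b1* (480.4). Among WT samples, WT4 was above the others for *Lcn2* (43.1 FPKM) and WT1 for MGC108823 (4.61).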

How the results depend on the processing

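The number of members followed the limits of the rule. A HYP/WT band of 0.9 and its reciprocal left 22 higher and 23 lower genes and a band of 2/3 gave 109 and 102. A PCC/HYP fold of 2 gave 94 and 160, a fold of 4 gave 33 and 24, and a minimum of 5 FPKM left 25 higher genes. Leaving out 1 sample at a time, the higher members numbered 35 to 59 and the lower ones 37 to 90 (35 and 37 without PCC4, 54 and 90 without PCC5). In PCC vs. HYP the genes called higher numbered 239 to 868 and lower 187 to 905, and the members called 18 to 39 and 13 to 41, with 18 and 13 without HYP3 and 19 and 15 without HYP4. In PCC vs. WT the calls were 2705 to 3232 higher and 2222 to 2756 lower (members 29 to 39 and 43 to 48), and in HYP vs. WT 1176 to 1800 and 790 to 1422. Of the member intervals, 0 to 0 of HYP/WT lay inside the band, 94 to 97 of PCC/HYP and 92 to 98 of PCC/WT left out 1, and 32 (without PCC4) to 61 (without HYP1) of PCC/HYP lay past 2-fold.

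With recovered library totals the genes called lower fell to 577 in HYP vs. WT, 426 in PCC vs. HYP and 1592 in PCC vs. WT. DESeq2 called 1481 genes lower in PCC vs. HYP. The cause of these shifts was not tested. Of the 72 alternatives that keep all samples, 55 gave counts within 1.5 times those reported, which does not mean the same genes: medians in place of means shared 45 of the 103 members and TMM scaling 52.

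Deviations of same-numbered samples from their group means correlated weakly (-0.16 to 0.19). Correlations of this size cannot settle whether the numbers pair the samples, and the main fits used no pairing. With the replicate number as a block, PCC vs. HYP had 202 genes called higher and 164 lower, of which 18 and 19 were members.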

Other observations

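Several groups of genes held 0 members. Enzymes of central carbon, amino acid and mitochondrial metabolism had 0 of 50 eligible genes, neurotransmitter receptors and synapse organizers 0 of 20, and neuropeptides and peptide hormones 0 of 9. Of all eligible genes 3.98% were members. In lists of this size 0 is near that share, and nothing is read from it. Of the members, 49 were in at least 1 of the 18 function lists and 54 in none.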
